A study of Mus musculus with 9 samples.

Results

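The matrix metalloproteinase system was followed through 10 genes in cultures of C2C12, a line of mouse muscle precursor cells that can be made to form myotubes. They are 6 metalloproteinases (Mmp2, Mmp3, Mmp9, Mmp10, Mmp13 and Mmp14) and the 4 tissue inhibitors of metalloproteinases (Timp1, Timp2, Timp3 and Timp4). The genes were found as the array probes annotated with those symbols, which gave 11 probes among 39429 probes of 30157 named genes; Timp2 had 2 probes. The set was selected on the measured levels in all 3 groups, so its levels and differences are given as a description with no test. Of the 11 probes, 10 passed the filter on dim probes, which left 9 of the 10 genes among the 22072 genes tested; the Mmp9 probe did not pass.

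All cultures were C2C12 cells kept for 72 h with vehicle, with 1 nM or with 10 nM of 1,25-dihydroxyvitamin D3 (calcitriol), the active hormone that binds the vitamin D receptor. The series is titled as a study of murine myotubes, and its design text gives 3 biological replicates for each of the 3 conditions. A single cell line was used, so no other cell type or animal stands behind the replicates, and p-values measure the spread between these cultures. Each total RNA was labelled with Cy3 and hybridised to its own 1-colour array. A level below is the log2 processed signal minus the 75th percentile of its array, so a level of 0 is that percentile itself, and levels of different probes are not set against each other.

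Metalloproteinases are zinc enzymes made as inactive zymogens, which are opened by other proteases and then cut collagens, laminins, proteoglycans and other matrix proteins. Mmp13 is a collagenase of fibrillar collagen, Mmp3 and Mmp10 are stromelysins of broad range that can also open other zymogens, Mmp2 and Mmp9 are gelatinases, and Mmp14 is anchored in the membrane and activates the zymogen of Mmp2 together with Timp2. The TIMPs are secreted proteins that block the active site, and Timp3 stays bound to the matrix. In muscle these enzymes are known for remodelling the matrix around fibres and for the migration of myoblasts.

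One array, that of vehicle replicate 3, was unlike the other 8. Of its spots 96.4% were well above background against 67.0% to 79.2% on the other arrays, 6124 spots were marked as non-uniform against 8 to 56, and the median signal was 659.6 intensity units against 215.6 to 315.4. In the 10% of genes with the lowest levels its values exceeded the mean of the other vehicle arrays by a median of 1.84 on the log2 scale, and in the 10% with the highest levels by -0.10. The differences of the dim members are therefore also given without that array. The arrays lay on 3 slides: slide 1 held replicate 1 of each group and vehicle replicate 2, slide 2 held vehicle replicate 3, 1 nM replicates 2 and 3 and 10 nM replicate 2, and slide 3 held 10 nM replicate 3 alone. Cyp24a1, the vitamin D degrading enzyme and a classical target of the receptor, had levels of -5.51 to -4.65 in vehicle, -4.05 to -3.76 at 1 nM and 0.92 to 0.96 at 10 nM, so the doses can be told apart by it. All 8 muscle markers (Myod1, Myog, Ckm, Myh3, Acta1, Tnnt3, Des and Ttn) were measured. Their summed linear signal, in units of the 75th percentile, ran from 247 to 280 in vehicle, from 311 to 323 at 1 nM and from 327 to 333 at 10 nM. Such a sum follows its brightest markers. Myog was lower instead, at 4.37 to 4.5 in vehicle, 4.22 to 4.33 at 1 nM and 3.91 to 4.05 at 10 nM. At an adjusted p of 0.05 in limma, 4 of the 8 were higher and 0 lower at 1 nM, beside 11.7% and 11.8% of all genes. At 10 nM 5 were higher and 1 lower, beside 15.3% and 14.7%.

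The promoters of Mmp13, Mmp3 and Mmp10 are shown because these are the metalloproteinase members on chromosome 9, whose levels were higher on every treated array than on vehicle replicates 1 and 2. RefSeq's table of the GRCm38.p6 build held a promoter for 8 of the 10 members, all but Mmp2 and Mmp9. The 250 bases before the annotated start are printed 5′ to 3′ on the plus strand of chromosome 9, at chr9:7272264-7272513 for Mmp13, chr9:7445572-7445821 for Mmp3 and chr9:7502092-7502341 for Mmp10. Capitals mark the AP-1 motif (TGAGTCA or its reverse complement TGACTCA) and the PEA3 motif of ETS factors (AGGAAG or CTTCCT), which do not overlap here.
Mmp13: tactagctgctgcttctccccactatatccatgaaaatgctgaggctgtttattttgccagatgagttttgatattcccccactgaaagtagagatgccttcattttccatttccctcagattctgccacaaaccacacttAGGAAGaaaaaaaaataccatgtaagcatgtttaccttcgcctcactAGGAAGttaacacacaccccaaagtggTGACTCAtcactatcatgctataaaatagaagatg
Mmp3: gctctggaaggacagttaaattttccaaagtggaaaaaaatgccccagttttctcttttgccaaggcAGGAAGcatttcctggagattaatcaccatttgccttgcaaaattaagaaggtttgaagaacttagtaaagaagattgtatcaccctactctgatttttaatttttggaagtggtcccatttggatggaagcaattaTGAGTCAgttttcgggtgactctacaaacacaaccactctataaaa
Mmp10: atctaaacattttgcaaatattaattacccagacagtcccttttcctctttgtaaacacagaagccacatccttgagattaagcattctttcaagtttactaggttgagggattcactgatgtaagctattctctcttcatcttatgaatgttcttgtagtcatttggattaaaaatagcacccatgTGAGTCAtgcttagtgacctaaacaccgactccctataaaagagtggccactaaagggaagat

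Each of the 3 windows held 1 AP-1 motif, whose first base lay at position -35 in Mmp13, -46 in Mmp3 and -63 in Mmp10 counted from the start. On both strands, 4.46% of 32841 promoter windows of the same length held this motif. None of the 5 TIMP and Mmp14 windows held it. The PEA3 motif, present in 29.5% of windows, occurred in 2 copies in Mmp13 and 1 copy in Mmp3, and also in Mmp14, Timp1, Timp3 and Timp4. The TATAAA motif, present in 12.4% of windows, occurred in Mmp13, Mmp3 and Mmp10 and in none of the other 5 windows. The TGTGGT motif of RUNX factors, in 14% of windows, occurred in Mmp13 and Mmp14. The direct-repeat type of vitamin D response element (DR3) occurred in 13 of all windows and in none of the 8. These are matches of letters in a short window and say nothing about binding. The windows of Mmp13, Mmp3 and Mmp10 belong to nearby genes of the same family and were picked with their levels known. They are not independent of each other, and no contrast with the other members or with all windows was tested.

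Mmp13 had the widest range of group means among the 11 member probes. Its probe lies at chr9:7282762-7282821 (mm9). The processed signals on vehicle replicates 1 to 3 were 5.01, 8.36 and 148 intensity units, and only the last, on the array that stood apart, was well above background. At 1 nM they were 5864, 6011 and 4778, and at 10 nM 11920, 11842 and 12394, all well above background. No treated array came near a vehicle array, and all 10 nM arrays were above all 1 nM arrays. As levels, the group means were -7.45 ± 2.65 in vehicle, 0.81 ± 0.14 at 1 nM and 2.08 ± 0.02 at 10 nM (SD, n = 3). The log2 difference from vehicle was 8.27 (SE 1.12) at 1 nM and 9.53 (SE 1.12) at 10 nM. Without vehicle replicate 3 the probe was below background on both vehicle arrays, and the signal was at least 183-fold higher at 1 nM and at least 439-fold higher at 10 nM. Such a bound sets the treated mean against the mean of, per vehicle array, the higher of the probe's own value and the lowest signal well above background on that array.

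Mmp3 had the same order of groups. Its probe lies at chr9:7455751-7455810 (mm9). The vehicle signals were 6.18, 10.1 and 125, with only the last well above background, against 2133, 2155 and 1963 at 1 nM and 2839, 3379 and 3317 at 10 nM. The groups did not overlap. The difference from vehicle was 6.75 (SE 0.99) at 1 nM and 7.49 (SE 0.99) at 10 nM on the log2 scale, and without vehicle replicate 3 the signal was at least 68.9-fold and at least 116-fold higher. The size of these differences moved with the processing, from 4.11 to 8.18 at 1 nM and from 4.92 to 8.96 at 10 nM for Mmp3 and from 5.26 to 9.88 and 6.49 to 11.18 for Mmp13, with all of the 25 alternatives positive. The lowest value of each came from slide 2, whose only vehicle array is replicate 3.

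Between the doses, the Mmp13 probe was 1.26 higher at 10 nM than at 1 nM on the log2 scale, or 2.4-fold. The SE of 1.12 in the fit of all arrays includes the vehicle spread, and in a fit of the treated arrays alone it was 0.08. The difference was 1.29 within slide 1 and 1.23 within slide 2. For Mmp3 the difference between doses was 0.74 (SE 0.99 with all arrays, 0.09 with the treated arrays), and 0.68 and 0.81 within the slides.

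**Figure D1:**
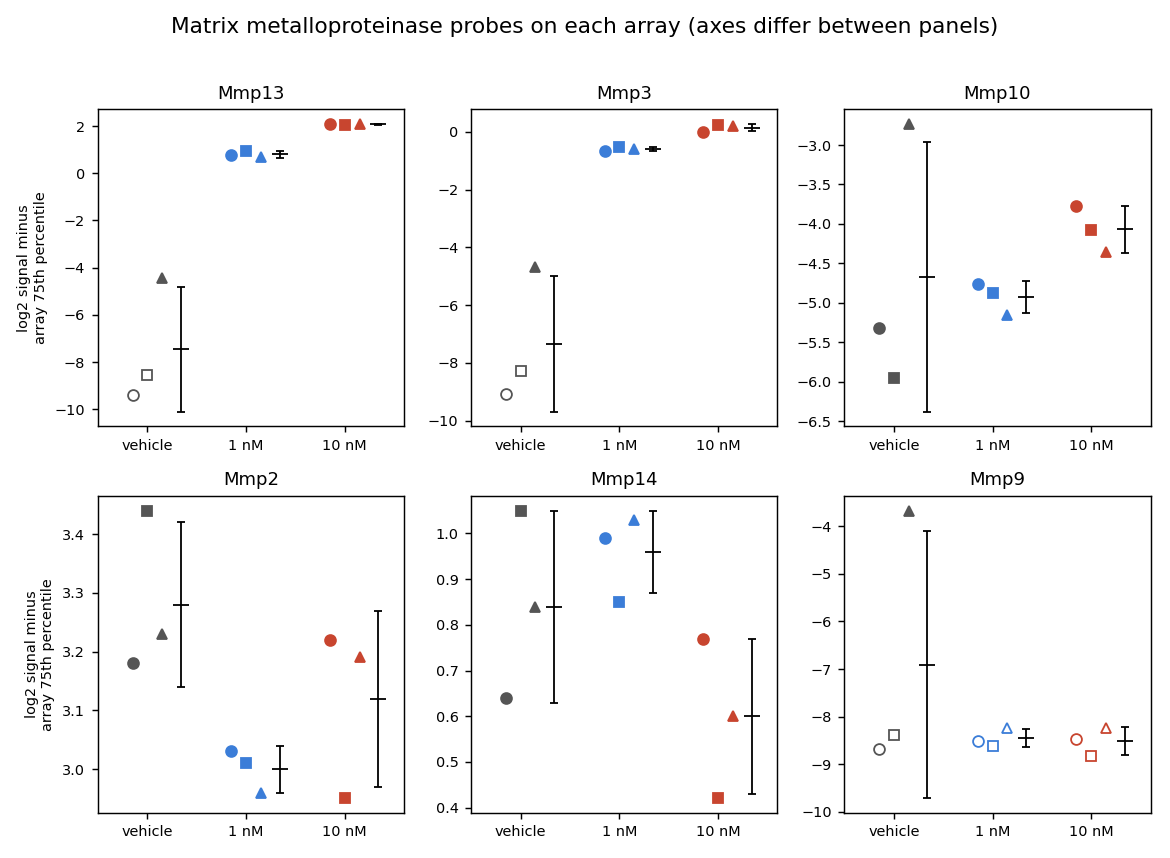
Levels (log2 processed signal minus the array's 75th percentile) of the 6 metalloproteinase probes by group; circles, squares and triangles are replicates 1, 2 and 3, open symbols are not well above background, and bars are mean ± SD of 3 arrays. Mmp13 and Mmp3 lie at 0.68 to 2.09 and -0.67 to 0.25 on treated arrays, while vehicle replicate 3 (triangle) is the highest vehicle array for Mmp13, Mmp3, Mmp10 and Mmp9.

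Mmp10, the other stromelysin, changed direction at 1 nM with the odd vehicle array. Its probe lies at chr9:7510011-7510070 (mm9) and was well above background on all 9 arrays. The levels were -5.32, -5.95 and -2.73 on the vehicle arrays, -4.76, -4.88 and -5.15 at 1 nM, and -3.77, -4.08 and -4.36 at 10 nM. Vehicle replicate 3 was the highest of the 9 arrays, and the other vehicle arrays were the lowest, so treated and vehicle groups overlapped. With all arrays the difference from vehicle was -0.26 (SE 0.74) at 1 nM and 0.60 (SE 0.74) at 10 nM. Without vehicle replicate 3 it was 0.71 and 1.57, and within slide 1 it was 0.88 and 1.87. Between the doses, where no vehicle array enters the difference, it was 0.86 (SE 0.18 in the treated arrays alone), and the groups did not overlap.

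The gelatinase Mmp2 (probe at chr8:95376840-95376899, mm9) was well above background on every array and differed little. The levels were 3.18, 3.44 and 3.23 in vehicle, 3.03, 3.01 and 2.96 at 1 nM, and 3.22, 2.95 and 3.19 at 10 nM. The 1 nM arrays lay below all vehicle arrays, and the 10 nM arrays overlapped both groups. The difference from vehicle was -0.28 (SE 0.10) at 1 nM and -0.16 (SE 0.10) at 10 nM. Relative to the median of all genes tested, which was itself -0.09 and -0.11, these come to -0.19 and -0.05.

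Mmp9, the other gelatinase (probe at chr2:164780620-164780679, mm9, printed as 10 spots), was not well above background on any treated array. Its levels were -8.68 and -8.38 on vehicle replicates 1 and 2, -8.61 to -8.24 at 1 nM and -8.82 to -8.23 at 10 nM. On vehicle replicate 3 the level was -3.67 and well above background, with 5 of the 10 spots marked as non-uniform there. With both groups below background when that array is left out, no fold is given.

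The membrane-anchored Mmp14 (probe at chr14:55058775-55058834, mm9) had levels of 0.64, 1.05 and 0.84 in vehicle, 0.99, 0.85 and 1.03 at 1 nM, and 0.77, 0.42 and 0.60 at 10 nM. The vehicle arrays spanned the 1 nM arrays and overlapped the 10 nM arrays, and all 10 nM arrays lay below all 1 nM arrays. The difference from vehicle was 0.11 (SE 0.13) at 1 nM and -0.24 (SE 0.13) at 10 nM, and between the doses it was -0.36 (SE 0.11 in the treated arrays alone). Within slide 1 the difference at 10 nM was -0.07 and within slide 2 it was -0.41.

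Among the inhibitors, Timp3 showed the widest range of group means. Its probe lies at chr10:85811696-85811755 (mm9). The levels were 4.81, 4.93 and 4.78 in vehicle, 4.59, 4.61 and 4.69 at 1 nM, and 3.64, 3.62 and 3.60 at 10 nM. The 10 nM arrays lay apart from all others, and the 1 nM arrays lay just below the vehicle arrays. The level at 10 nM was lower than vehicle by -1.22 on the log2 scale (SE 0.07), a signal 2.33-fold lower, and lower than 1 nM by -1.01 (SE 0.07). At 1 nM the difference was -0.21 (SE 0.07). Within slides 1 and 2 the difference between the doses was -0.95 and -1.03, so it was as large within each slide.

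Timp1, an inhibitor that is often induced together with the enzymes, was lower at each dose. Its probe lies at chrX:20451802-20451861 (mm9). The levels were 5.88, 5.50 and 5.82 in vehicle, 5.17, 5.32 and 5.31 at 1 nM, and 4.83, 4.98 and 4.91 at 10 nM, with no overlap between any pair of groups. The differences from vehicle were -0.46 (SE 0.11) and -0.83 (SE 0.11), and -0.36 between the doses (SE 0.07 in the treated arrays alone). Within slide 1 the differences from vehicle were -0.52 and -0.86, and within slide 2 -0.50 and -0.84.

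Timp2, the inhibitor that also takes part in activating the Mmp2 zymogen, was higher at both doses in both of its probes. The first probe (chr11:118163146-118163205, mm9, minus strand) had levels of 6.68, 6.59 and 6.40 in vehicle, 7.03, 7.23 and 7.30 at 1 nM, and 7.27, 7.46 and 7.29 at 10 nM. Treated arrays did not overlap vehicle arrays, while the doses overlapped each other. The difference from vehicle was 0.63 (SE 0.11) at 1 nM and 0.79 (SE 0.11) at 10 nM. The second probe, whose alignment in the files spans chr11:118171964-118178741 (mm9), gave 0.54 (SE 0.08) and 0.55 (SE 0.08). The doses differed by 0.16 (SE 0.11) in the first probe and by 0.01 (SE 0.08) in the second.

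Timp4 (probe at chr6:115196120-115196179, mm9, minus strand) was dim and divided by slide. On slide 1 the levels were -3.48 and -3.60 in vehicle, -3.46 at 1 nM and -3.53 at 10 nM. On slides 2 and 3 the treated arrays had -4.88, -4.38, -4.74 and -4.31, and vehicle replicate 3 had -2.65. Over all arrays the difference from vehicle was -0.99 (SE 0.46) at 1 nM and -0.95 (SE 0.46) at 10 nM with overlapping groups, and within slide 1 it was 0.08 and 0.01. Without vehicle replicate 3 it was -0.70 and -0.65.

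**Figure D2:**
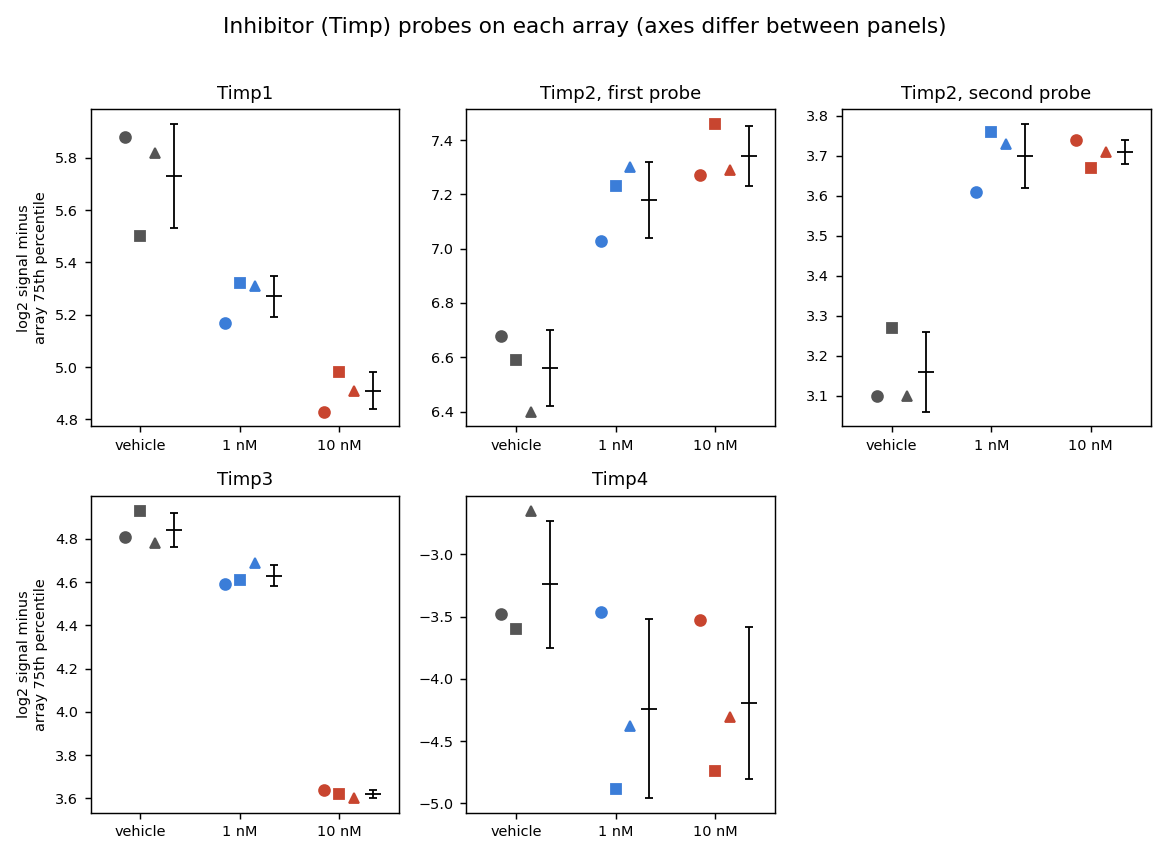
Levels (log2 processed signal minus the array's 75th percentile) of the 5 inhibitor probes by group, with the same symbols as for the metalloproteinases (circle, square and triangle for replicates 1, 2 and 3; bars, mean ± SD of 3 arrays). Timp3 lies at 3.60 to 3.64 at 10 nM and at 4.59 or above elsewhere, Timp1 steps down with no overlap, and the replicate 1 arrays of Timp4 lie together near -3.5.

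Set side by side, the differences from vehicle at 1 nM and at 10 nM were 8.27 and 9.53 for Mmp13, 6.75 and 7.49 for Mmp3 and 0.63 and 0.79 for Timp2. They were -0.46 and -0.83 for Timp1 and -0.21 and -1.22 for Timp3. The doses share the vehicle arrays, so these pairs are not independent.

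The scaling affects the small differences. With the array median in place of the 75th percentile as the scale, the median difference of all genes moved from -0.09 to 0.37 at 1 nM and from -0.11 to 0.39 at 10 nM. The sign then turned for Mmp2 at both doses (0.21 and 0.36), for Timp1 and Timp3 at 1 nM (0.03 and 0.28), for Mmp10 at 1 nM (0.23) and for Mmp14 at 10 nM (0.29). With the array median and vehicle replicate 3 left out, a setting added after seeing the data, all-gene medians were 0.08 and 0.10 and the values were -0.21 and -0.05 for Mmp2, -0.32 and -0.14 for Timp1 and Timp3 at 1 nM, and -0.11 for Mmp14. Mmp13, Mmp3, both Timp2 probes, and Timp1 and Timp3 at 10 nM kept their sign against vehicle under every scaling.

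**Figure D3:**
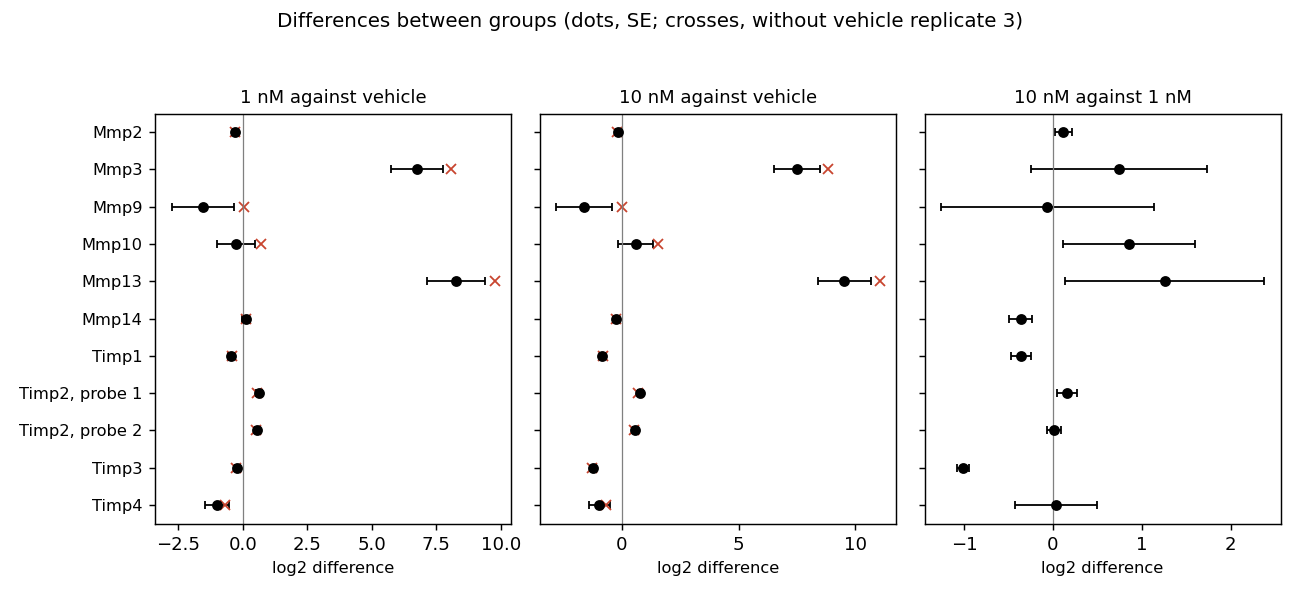
Log2 difference between groups for each member probe, with dots and bars for the value and SE of the fit of all 9 arrays and crosses for the value without vehicle replicate 3, which for Mmp13, Mmp3 and Mmp9 against vehicle rests on signal below background; the horizontal axes differ. Mmp13 and Mmp3 lie at 6.75 to 9.53 against vehicle, Mmp10 and Mmp9 shift when the odd vehicle array is left out, and Timp3 lies at -1.01 between the doses.

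In limma's fit of all genes (Benjamini-Hochberg adjusted p of 0.05), 3 of the 9 members tested were called higher and 1 lower at 1 nM, where 11.7% of all genes were called higher and 11.8% lower. At 10 nM 3 were called higher and 2 lower, beside 15.3% and 14.7% of all genes, and between the doses 0 were called higher and 1 lower, beside 1.57% and 2.21%. A difference of at least 2-fold was reached at 1 nM by 2 members higher (Mmp3 and Mmp13) and 0 lower, beside 2.37% and 8.84% of all genes. At 10 nM 2 were higher and 1 (Timp3) lower, beside 3.53% and 11.3%, and between the doses 1 (Mmp13) was higher and 1 (Timp3) lower, beside 0.716% and 0.843%. Because these contrasts chose the members, nothing is read from these counts. The median difference of the 9 members was -0.21, -0.16 and 0.12 in the 3 comparisons, beside -0.09, -0.11 and -0.01 for all genes.

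The other genes of the system were taken from 9 lists, and 107 of 129 listed genes were measured. These genes are not members, and limma's adjusted p-values are given for them. At 1 nM 20 listed genes rose and 31 fell, at 10 nM 22 rose and 34 fell, and 4 were higher and 17 lower at 10 nM than at 1 nM; the shares of all genes called are those given for the members. Of all called genes 49.7%, 51% and 41.5% were higher, and with array median scaling these shares were 61.3%, 66.4% and 69.6%. With that scaling 20, 32 and 1 (Lama4) listed genes were called, so it ended every other call between the doses named below.

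Of 10 other metalloproteinases measured, 2 rose and 1 fell at 1 nM, 3 rose and 2 fell at 10 nM, and 1 was lower at 10 nM than at 1 nM; the list's median was -0.16, -0.30 and 0.07. Mmp8, the neutrophil collagenase, rose by 5.25 on the log2 scale at 1 nM (SE 1.04, adjusted p = 0.00902 in limma) and by 5.63 at 10 nM (SE 1.04, limma adjusted p = 0.00493). Its processed signals were 5.15, 8.57 and 119 in vehicle, 672, 698 and 574 at 1 nM and 814, 708 and 769 at 10 nM, so the groups did not overlap and only vehicle replicate 3 was above background among vehicle arrays. Without that array the signal was at least 21.4-fold and at least 27.8-fold higher. The Mmp8 probe passed the filter on dim probes only through the treated groups, so nothing is read from its p-values. Mmp11 (stromelysin-3) rose by 0.68 and 0.89 (SE 0.11, limma adjusted p = 0.00333 and 0.000603). Mmp23 fell by 0.52 and 0.77 (SE 0.10, limma adjusted p = 0.00608 and 0.000657), a call that array median scaling ended at both doses (-0.03 and -0.24). Mmp15, a membrane type, was lower at 10 nM than at 1 nM by -0.51 (SE 0.11, limma adjusted p = 0.0434, and 0.133 with the replicate block); leaving out any 1 array other than vehicle replicate 2 or 3 gave 0.0786 to 0.168.

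Position is a feature that the choice of members did not use. In the reference gene table, the 10 protein-coding genes from Mmp13 to Mmp7 on chromosome 9 are all metalloproteinases, in the order Mmp13, Mmp12, Mmp1b, Mmp3, Mmp1a, Mmp10, Mmp8, Mmp27, Mmp20 and Mmp7, and 7 of them were tested. This cluster was looked at after its values were seen. Mmp13, Mmp3 and Mmp8 went from below background on vehicle replicates 1 and 2 to above it on all 6 treated arrays. All 3 passed the filter on dim probes only through the treated groups, and Mmp13 and Mmp3 were chosen with these levels known. Nothing about the cluster as a whole is therefore read from this step. Of the 22072 genes tested, 80 with a value on vehicle replicate 3 were likewise not well above background on vehicle replicates 1 and 2. The Mmp27 probe used was not well above background on any vehicle array and was at least 1.45-fold higher at 10 nM (limma adjusted p = 0.0321, and 0.0747 with the replicate block). It passed the filter on dim probes only through the 10 nM group, where it is high, so nothing is read from that call. Leaving out any 10 nM array, vehicle replicate 1 or 2, or 1 nM replicate 2 ended that call (0.0554 to 0.0864). In the submitters' table the difference was -0.48. The gene had 2 probes, and the other one did not pass the filter. Counting both probes, Mmp27 was well above background on 2 vehicle arrays, so the bound holds for the probe used only. Mmp12, macrophage elastase, had levels of -4.96, -6.00 and -3.34 in vehicle, -4.14, -4.26 and -4.43 at 1 nM and -3.68, -3.92 and -3.95 at 10 nM (limma adjusted p = 0.574 and 0.266). Without vehicle replicate 3 the differences were 1.20 and 1.63 and passed the threshold (limma adjusted p = 0.0219 and 0.00485). Mmp12 was not well above background on vehicle replicate 2, so these differences rest partly on background-level signal. Mmp7 (matrilysin), at the far end, gave -0.85 and -0.68 (SE 0.44, limma adjusted p = 0.221 and 0.275). Mmp1a, Mmp1b and Mmp20 did not pass the filter on dim probes.

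**Figure D4:**
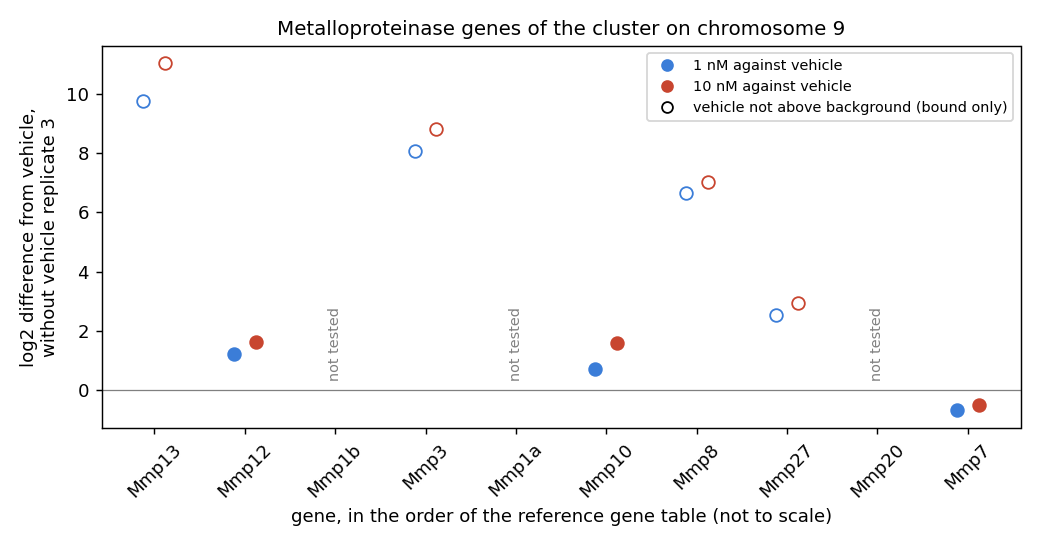
Log2 difference from vehicle, without vehicle replicate 3, for the metalloproteinase genes of the chromosome 9 cluster in their order along the chromosome (blue, 1 nM; red, 10 nM); open symbols are probes well above background on neither of those vehicle arrays, whose plotted value rests on background-level signal and stands for a bound only. Those bounds are at least 183-fold and 439-fold for Mmp13, 68.9-fold and 116-fold for Mmp3, 21.4-fold and 27.8-fold for Mmp8, and 1.21-fold and 1.63-fold for Mmp27, while the filled points of Mmp12 and Mmp10 lie between 0.71 and 1.63 and Mmp7 below 0. The filled points of Mmp12 rest partly on vehicle replicate 2, where its probe was not well above background.

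Both plasminogen activators and the urokinase receptor, which produce the plasmin that opens several metalloproteinase zymogens, fell at both doses. Of 13 zymogen activators measured, 2 rose and 4 fell at 1 nM (median -0.54), 2 rose and 3 fell at 10 nM (median -0.34), and 1 was higher and 3 lower at 10 nM than at 1 nM (median -0.06). Plau, the urokinase, fell 5.72-fold at 1 nM and 13-fold at 10 nM (log2 -2.52 and -3.70, SE 0.24, limma adjusted p = 0.000228 and 1.93e-05). Plaur, its receptor, fell 4.8-fold and 9.52-fold (SE 0.13, limma adjusted p = 1.82e-05 and 1.76e-06), and Plat, the tissue-type activator, 1.69-fold and 2.6-fold (SE 0.08, limma adjusted p = 0.000271 and 7.5e-06), with Plat's calls lost under array median scaling (-0.27 and -0.85). All 3 were also lower at 10 nM than at 1 nM, by -1.18, -0.99 and -0.62 (limma adjusted p = 0.0427, 0.00819 and 0.00561). The Plau call between doses was lost with the replicate block (0.117) and without vehicle replicate 1 or 2, any 1 nM array or 10 nM replicate 2 (0.0623 to 0.173). With the replicate block in the treated arrays alone the Plaur and Plat calls were lost (0.065 and 0.0582), and a slide block also ended that of Plaur (0.0647). Ctsb, the lysosomal protease cathepsin B, rose 1.58-fold and 1.74-fold (SE 0.10, limma adjusted p = 0.00284 and 0.00076, the first 0.0542 with array median scaling), and Pcsk6, a proprotein convertase, was higher at 10 nM than at 1 nM by 0.58 (SE 0.08, limma adjusted p = 0.00733, and 0.0651 with the slide as a block). At 10 nM Serpine2, an inhibitor of serine proteases with no value on 1 array, rose by 0.89 (limma adjusted p = 0.0216; 0.053 to 0.103 without vehicle replicate 2 or 10 nM replicate 1 or 3), which became -0.28 when non-uniform spots were kept.

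Of 5 other inhibitors and clearance receptors measured, 0 rose and 3 fell at each dose (median -0.60 and -0.98), and 2 were lower at 10 nM than at 1 nM (median -0.09). Thbs2, thrombospondin-2, which clears Mmp2 through endocytosis, fell 5.94-fold and 8.95-fold (SE 0.09, limma adjusted p = 9.9e-07 and 2.36e-07). Thbs1 fell 1.51-fold and 2.38-fold (SE 0.09, limma adjusted p = 0.00276 and 3.81e-05), with both calls lost under array median scaling (-0.11 and -0.72). Both were lower at 10 nM than at 1 nM, by -0.59 and -0.65 (limma adjusted p = 0.011 and 0.00935); the first was 0.0561 and 0.0628 without 1 nM replicate 1 or 3, and the second 0.0554 without 1 nM replicate 2 and 0.0644 with the slide as a block. Reck, a membrane inhibitor of several metalloproteinases, fell 2.07-fold and 1.97-fold (SE 0.12, limma adjusted p = 0.000532 and 0.000552), while its other probe gave -0.23 and -0.38 and quantile normalization and array median scaling ended both calls (-0.19 and -0.09, -0.56 and -0.45).

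Of 20 matrix proteins that these enzymes cut, 3 rose and 11 fell at 1 nM (median -0.50), 2 rose and 11 fell at 10 nM (median -0.61), and 0 were higher and 6 lower at 10 nM than at 1 nM (median -0.19); with array median scaling 1 rose and 4 fell, and 1 rose and 6 fell, against vehicle. Tnc, tenascin-C, fell 7.72-fold and 11.4-fold (SE 0.12, limma adjusted p = 2.35e-06 and 6.4e-07). Col5a1, a chain of the fibril-starting type V collagen, fell 5.24-fold at 1 nM and 8.58-fold at 10 nM (SE 0.07, limma adjusted p = 5.05e-07 and 9.83e-08). Col4a1, a chain of basement membrane collagen, fell 5-fold and Lama4, a laminin chain with no value on 1 array, fell 8.08-fold at 10 nM (limma adjusted p = 1.52e-06 and 2.03e-05), and both were lower at 10 nM than at 1 nM, by -0.88 and -1.64 (limma adjusted p = 0.00321 and 0.00284). At 1 nM Col4a1 and Lama4 fell 2.71-fold and 2.59-fold (limma adjusted p = 2.84e-05 and 0.00123). The Lama4 call between the doses was lost with non-uniform spots kept (0.21) and in the submitters' table (0.666). Nid1, nidogen, which links laminin to collagen in the basement membrane, fell 3.08-fold at 1 nM and 3.44-fold at 10 nM (SE 0.11, limma adjusted p = 4.33e-05 and 1.72e-05). Dcn, the collagen-binding proteoglycan decorin, rose 2.74-fold at 1 nM and 2.24-fold at 10 nM (SE 0.12, limma adjusted p = 0.000116 and 0.000274). In these cultures fewer cells of a type and less RNA per cell cannot be told apart.

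**Figure D5:**
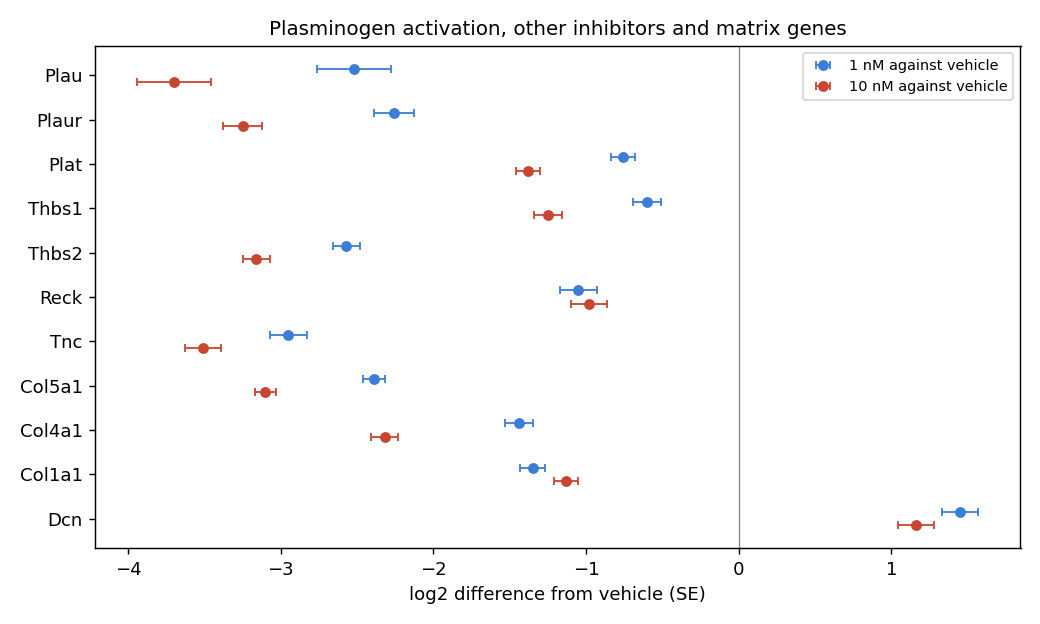
Log2 difference from vehicle (dots) with its SE (bars) for genes of plasminogen activation, other inhibitors and matrix substrates at 1 nM (blue) and 10 nM (red); every point shown passed an adjusted p of 0.05 in limma. All but Dcn lie below 0, with Plau at -3.70 and Tnc at -3.51 at 10 nM. The genes shown are a selection from the lists, so their shared direction follows from the choice. Genes of these lists that rose (such as Ctsb, Ctsl and Lamb1), that were not called (such as Fn1 and Lrp1) and further genes that fell are left out.

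The related protease families moved in both directions. Of 9 ADAM proteases, 1 rose and 2 fell at 1 nM, 1 rose and 3 fell at 10 nM, and 2 were lower at 10 nM than at 1 nM (median -0.08, -0.04 and -0.06). Adam19, a sheddase, rose 1.81-fold and 2.37-fold (SE 0.12, limma adjusted p = 0.00202 and 0.000196), and Adam23, an adhesion protein without protease activity, fell 3.37-fold and 5.3-fold (SE 0.13, limma adjusted p = 4.87e-05 and 5.96e-06). Adam8 was lower at 10 nM than in vehicle by -0.42 (limma adjusted p = 0.00431), which became 0.11 with array median scaling. Of 16 ADAMTS and astacin proteases, 4 rose and 1 fell at 1 nM, 6 rose and 3 fell at 10 nM, and 2 were higher at 10 nM than at 1 nM (median -0.24, -0.02 and 0.01). Adamts6 and Adamts7 rose at both doses (1.74-fold and 1.51-fold at 1 nM, 2.1-fold and 2.07-fold at 10 nM; limma adjusted p = 0.00145, 0.00601, 0.000219 and 0.000229); the Adamts7 call at 1 nM was lost with array median scaling (0.0636). Adamts15, an aggrecanase, was higher at 10 nM than at 1 nM by 1.08 (limma adjusted p = 0.0114, 0.0503 with the replicate block, and 0.0526 to 0.0603 without any 1 nM array or 10 nM replicate 1 or 2). Adamts2 fell 1.57-fold at 1 nM (limma adjusted p = 0.000408, and 0.765 with array median scaling). Adamts10 fell 3.08-fold at 10 nM (limma adjusted p = 0.022, and 0.0691 and 0.0657 without 10 nM replicate 2 or 3). Its level was -2.84 on vehicle replicate 3, against -4.65 and -4.3 on the other vehicle arrays. Without vehicle replicate 3 it fell 2.11-fold (limma adjusted p = 0.0013). The other Adamts10 probe gave -0.81, and the mean over probes was not called (limma adjusted p = 0.194).

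Of 18 transcription factors that act on metalloproteinase promoters, 5 rose and 5 fell at 1 nM, 5 rose and 6 fell at 10 nM, and 1 was higher and 1 lower at 10 nM than at 1 nM (median -0.10, 0.06 and 0.06). Factors that bind the AP-1 motif printed in capitals in the 3 promoters did not move together. Fos, Fosb, Junb and Jund were not called against vehicle at either dose. Atf3, of the same list, rose 1.43-fold and 1.39-fold (limma adjusted p = 0.0387 and 0.0423). Jun rose 1.6-fold at 1 nM and 2.33-fold at 10 nM (SE 0.11, limma adjusted p = 0.00291 and 9.32e-05). Fosl1 fell 3.04-fold and 2.73-fold (SE 0.29, limma adjusted p = 0.00553 and 0.00674, and 0.0948 and 0.117 with array median scaling). Fosl2 rose 3.16-fold and 3.35-fold in its brighter probe (SE 0.09, limma adjusted p = 1.37e-05 and 6.55e-06), while its other probe gave -0.42 and -0.36 and the mean over probes was not called (0.156 and 0.0972). Runx2, the osteoblast factor for which the Mmp13 window held a motif, fell 1.8-fold and 3.16-fold (SE 0.10, limma adjusted p = 0.000616 and 1.09e-05), with both calls lost under array median scaling (-0.36 and -1.13) and quantile normalization (-0.31 and -1.05). Cebpb rose 1.82-fold at 1 nM and 2.11-fold at 10 nM (SE 0.09, limma adjusted p = 0.000277 and 5.93e-05).

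The genes whose levels followed Mmp13 most closely over the 9 arrays were, among 3242 genes with a range of group means of at least 1, Orm3 (Pearson r = 0.9994), Mmp3 (0.9989), Scel (0.9971), Npr3 (0.997) and Fabp4 (0.9956). Without vehicle replicate 3 these values were 0.9972 to 0.9995. For Timp3, the inhibitor probe with the widest range of group means, they were Sfrp2 (0.9933), Gdf6 (0.9924), Itga10 (0.9878), Abcg1 (0.9858) and Rflnb (0.9767). The arrays fall into 3 groups, so these values describe the same steps between groups and carry no p. Orm3 had mean levels of -4.49, 0.24 and 0.87 in vehicle, 1 nM and 10 nM, and Sfrp2 had 0.04, -0.59 and -2.77.

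Fabp4 is also a marker of adipocytes, and the markers of other cell types were set beside the members. All 4 adipocyte markers were measured, and their summed linear signal, in units of the 75th percentile, ran from 0.0631 to 0.386 in vehicle, 1.24 to 1.39 at 1 nM and 3.6 to 3.96 at 10 nM. Fabp4 had levels of -8.43 to -3.82, 0.04 to 0.19 and 0.62 to 0.83, and Adipoq of -8.93 to -2.80, -2.66 to -2.42 and 0.99 to 1.13. Plin1 (-6.55 to -3.57, -6.49 to -6.07 and -7.85 to -5.95) and Cidec (-4.44 to -3.52, -4.53 to -4.37 and -5.14 to -3.98) did not follow them. The neutrophil sum was 1.05 to 1.67, 0.793 to 1.12 and 0.889 to 1.38, with S100a9 not passing the filter, and the macrophage sum was 21.2 to 25.6, 18.1 to 19.4 and 16.3 to 21.5. Osteoblast and chondrocyte markers summed to 0.527 to 0.758, 0.563 to 0.593 and 0.338 to 0.407, fibroblast markers to 0.374 to 0.436, 0.354 to 0.377 and 0.356 to 0.373, and endothelial markers to 3.55 to 5.92, 3.81 to 5.21 and 4.54 to 6.25. Such a sum follows its brightest marker. Of fibroblast markers 1 was called higher and 2 lower at each dose. Dpt had levels of -4.69 to -3.77, -8.55 to -7.91 and -8.91 to -8.35. Thy1 had -4.05 to -2.78, -6.66 to -6.04 and -7.47 to -6.4. Pdgfra had -2.11 to -1.89, -1.56 to -1.46 and -1.55 to -1.45. The endothelial marker Tek (2 vehicle values) had -6.69 to -6.34, -3.81 to -3.76 and -3.86 to -3.62. Of neutrophil markers 1 was called higher and 0 lower at 1 nM, and 0 higher and 1 lower at 10 nM. S100a8, well above background on 0 vehicle arrays, had -8.5 to -6.52, -6.4 to -5.23 and -6.63 to -6.25. Ly6g had -4.37 to -3.79, -4.78 to -4.17 and -5.59 to -5.13. Of macrophage markers 0 were called higher and 1 lower at each dose. Cd14 had -1.43 to -1.22, -2.08 to -2.02 and -2.29 to -2.25. The adipocyte sum moved with Mmp3 and Mmp13, and its part in their difference was not tested. This sum includes Fabp4, which was named above because it followed Mmp13, so that likeness is partly built in.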

How the data were processed

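The deposited scanner files hold processed, mean and background signals as intensity values on a linear scale, and other columns mark each spot as control, non-uniform or well above background; the file headers name all of these. Feature Extraction 11.5.1.1 made them, and limma is named in the submitters' processing notes. Values in the deposited series table are log2, their normalization is not given in the sources used here, and they served as an alternative. Probe positions are mm9, per the file headers, except that the header of 10 nM replicate 3 names no build. The exon or UTR that a probe lies in was not analysed here.

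The 75th percentile of an array was subtracted from its log2 processed signals to give levels. Control spots and non-uniform spots were left out and spots of a probe averaged. A probe was kept if well above background on all 3 arrays of a group (28544 of 39429), and a gene took its brightest kept probe (22072 genes, 20133 with a value on all arrays). Groups were compared in 1 fit of all arrays in limma 3.58.1 (R 4.3.3), without a block, at a Benjamini-Hochberg adjusted p of 0.05, tested on simulated data. The number of arrays limits the precision.

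The members, the 9 lists (other metalloproteinases, other inhibitors and clearance receptors, zymogen activators, ADAM, ADAMTS and astacin proteases, matrix substrates, transcription factors, cytokines and receptors, and 1 list of which only Serpine2 is reported here beside the totals) and the marker lists were chosen with earlier results of these data known. Up to 4 called genes with the largest difference and no overlap were eligible to be named per list and comparison, and most are. Across genes, deviations of same-numbered 1 nM and 10 nM arrays correlated at 0.483, 0.33 and 0.141. The numbers were taken as pairs only in the alternatives with a replicate block. The main fit and its p-values between the doses did not use these pairs. With the replicate block 453 genes and 14 listed genes were called between the doses, beside 833 and 21 in the main fit. Each pair behind 0.483 and 0.33 shared a slide, and the pair behind 0.141 did not. Pairing was therefore not tested apart from slide. Vehicle numbers did not pair (-0.421 to 0.055). Promoters came from RefSeq. Alternatives covered background correction, scaling, filters, probe choice, spread model, blocks, slides, each array left out and a stricter threshold.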

Additional observations from a re-analysis of the deposited data

How the results depend on the processing

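Mmp13, Mmp3 and Timp2 stayed higher, and Timp3 at 10 nM and Timp1 at 10 nM lower, than vehicle under every alternative that gave a value, while Timp1 at 1 nM became 0.03 with array median scaling. Among listed genes 3 named differences reversed, Mmp27 at 10 nM (-0.48 in the submitters' table), Serpine2 at 10 nM (-0.28 with non-uniform spots kept) and Adam8 at 10 nM (0.11 with array median scaling); the cause was not tested. Depth is limited by signal over background, so vehicle levels of Mmp13, Mmp3, Mmp8, Mmp9 and the Mmp27 probe used are bounds, with vehicle replicate 3 left out for all but Mmp27.

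Leaving out each array gave 3496 to 5554, 5095 to 7150 and 363 to 1263 genes called in the 3 comparisons (1 nM and 10 nM against vehicle, 10 nM against 1 nM), beside 5178, 6621 and 833. For listed genes it gave 40 to 51, 48 to 60 and 9 to 24, beside 51, 56 and 21, and for members at least 2-fold different 2 to 3, 3 to 4 and 1 to 2, beside 2, 3 and 2. Array median scaling gave 1526, 2533 and 56 genes, 20, 32 and 1 listed genes, and 1 member between the doses; with vehicle replicate 3 also left out, 11 listed genes and 1 member were counted between the doses. Within slide 1 there were 1583, 2539 and 4 genes, 20, 36 and 0 listed genes and 1 member between the doses. Within slide 2 there were 10298 genes at 1 nM and 0 between the doses, 0 listed genes between the doses, and 4 and 6 members against vehicle at 1 nM and 10 nM. An adjusted p of 0.01 left 3089, 4332 and 366 genes and 9 listed genes between the doses, and array weights gave 8579 genes at 1 nM and 1976 between the doses. With probes above background on all 9 arrays 0, 1 and 1 members were counted, since Mmp3 and Mmp13 then drop out.

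Between the doses the other counts were 367 genes and 8 listed genes from the submitters' table, 537 genes with no filter on dim probes, 1334 genes with only the compared arrays, and 13 listed genes with quantile normalization. With the slide as a block they were 344 genes and 8 listed genes. The replicate block gave 453 genes and 14 listed genes between the doses, and with the treated arrays alone, a setting added after seeing the data, 13 listed genes. Against vehicle the replicate block gave 4657 and 6214 genes and ended the call of Mmp27 at 10 nM. Between the doses it also ended the calls of Adam23 (0.11), Adamts14 (0.0901) and Jun (0.074).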

Other observations

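Of 14 cytokines and receptors that induce metalloproteinases, 3 rose and 3 fell at 1 nM, 2 rose and 2 fell at 10 nM, and 1 was lower at 10 nM than at 1 nM, with list medians of -0.30, -0.15 and -0.01 beside -0.09, -0.11 and -0.01 for all genes. Il6, an inflammatory cytokine that muscle also secretes, fell 4.49-fold at 1 nM and 13.6-fold at 10 nM (SE 0.13 on the log2 scale, adjusted p = 1.94e-05 and 7.16e-07 in limma), and was lower at 10 nM than at 1 nM by -1.59 (limma adjusted p = 0.00108). Il1b rose by 0.58 and 1.04 (limma adjusted p = 0.0169 and 0.00076), while its receptor Il1r1 fell by 0.56 and 0.89 (limma adjusted p = 0.0195 and 0.00171), with both calls lost under array median scaling (-0.07 and -0.36), as was that of Il1b at 1 nM (1.07). Osmr, the receptor of oncostatin M, rose 1.78-fold and 1.81-fold (limma adjusted p = 0.00237 and 0.00159). Leaving out a single array ended the Il1b call at 1 nM for vehicle replicate 1 (0.0507) and for 1 nM replicates 1 (0.0575) and 2 (0.0648), and the Il1r1 call at 1 nM without 1 nM replicate 2 (0.0738) or 3 (0.0747).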
